A study of Mus musculus with 15 samples.

Results

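The 10 genes described here handle zinc and iron in 6DT1 cells, a mouse mammary cancer line of FVB/N1 background. They were chosen by symbol: the metallothioneins Mt1 and Mt2, their regulator Mtf1, the zinc exporter Slc30a1, the ferritin chains Fth1 and Ftl1, the iron importers Tfrc and Slc11a2, and the iron regulatory proteins Ireb2 and Aco1. All 10 were in the table of 55341 gene symbols, and all 10 were among the 13085 genes with enough counts to test. The 15 libraries fell into 4 groups, all of 6DT1 cells harvested at 24 h. Clic4-knockout (KO) cells were given 1 µM hydrogen peroxide (H2O2; 3 libraries, replicates 5, 7 and 8) or left untreated (4 libraries, replicates 1 to 4). Wild-type (WT) cells were given the same H2O2 dose (4 libraries, replicates 13 to 16) or left untreated (4 libraries, replicates 9 to 12). CLIC4 is a chloride intracellular channel protein, and the comparison asks how its loss and a mild oxidant alter transcription. The labels state neither the number of knockout clones nor whether replicates were separate cultures, so p-values measure only the spread between these samples, which may be technical.

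Cells keep free zinc and iron low because both metals are needed by enzymes and both can do harm. Metallothioneins are small cysteine-rich proteins that bind zinc, and the zinc-sensing factor MTF1 turns on their genes and that of the exporter ZNT1 through metal response elements. Ferritin is a cage of heavy (FTH1) and light (FTL1) chains that stores iron, while the transferrin receptor (TFRC) brings iron into the cell and the transporter DMT1 (Slc11a2) moves it out of endosomes. When iron is scarce, the iron regulatory proteins IRP1 (Aco1) and IRP2 (Ireb2) bind hairpins called iron-responsive elements, which blocks translation of ferritin mRNA and protects Tfrc mRNA from decay. With iron in supply IRP1 instead holds an iron-sulfur cluster and works as cytosolic aconitase, and IRP2 is degraded.

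Libraries held 12.31 to 14.71 M counts in H2O2-treated KO, 13.27 to 16.03 M in untreated KO, 13.38 to 15.84 M in H2O2-treated WT and 13.95 to 15.62 M in untreated WT cells. Clic4 stood at 64.2 to 75.9 counts per M (CPM, scaled by library) in the 7 KO libraries and at 313 to 327 in the 8 WT libraries, so its mRNA was reduced and not absent. Untreated WT replicate 9 has a genotype field that reads knockout, against its title, and was kept as WT, with 327 CPM of Clic4. Untreated KO replicate 4 stood apart from its group in several genes given below. Of 10 epithelial markers, Krt8, Krt18 and Krt19 carried nearly all counts, while Epcam and Cdh1 averaged at most 0.034 and 0.084 CPM in any group, and Cldn7 and Esrp1 were at 0. The summed epithelial markers lay at 969 to 1030 CPM in H2O2-treated KO, 922 to 981 in untreated KO, 1020 to 1060 in H2O2-treated WT and 997 to 1060 CPM in untreated WT cells. These similar sums hold opposite differences: Krt18 averaged 153 ± 4.89 CPM in untreated KO and 334 ± 1.65 CPM in untreated WT cells (log2 −1.12), and Krt19 156 ± 6.23 and 54.3 ± 4.09 CPM in the same order (log2 1.52). Summed blood and immune markers (16 genes) lay at 270 to 284 CPM in H2O2-treated KO, 273 to 309 in untreated KO, 397 to 423 in H2O2-treated WT and 389 to 432 in untreated WT cells, nearly all of it Cd68. Of those 16 markers 8, 7, 9 and 3 were at 0 in these 4 groups, and the part of these epithelial and blood markers in the results was not tested.

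The 10 genes span a wide range of expression. By reads per kilobase per M counts (RPKM), which allows genes to be compared, the order in untreated KO cells was Ftl1 (2570), Fth1 (821), Mt2 (350), Mt1 (166), Tfrc (38.7), Aco1 (9.46), Slc11a2 (9.39), Ireb2 (8.33), Mtf1 (2.82) and Slc30a1 (2.81). Ftl1 ranked 8 among all genes there and 6 in untreated WT cells. In untreated WT cells the order was Ftl1 (3725), Fth1 (1020), Mt2 (196), Mt1 (117), Tfrc (24.2), Aco1 (11.9), Ireb2 (9.08), Slc11a2 (5.81), Mtf1 (2.83) and Slc30a1 (2.27). In untreated KO cells Aco1, Slc11a2 and Ireb2 could not be ranked beyond their spread (SD 0.223, 2.34 and 0.658 RPKM), nor could Mtf1 and Slc30a1 (SD 0.131 and 0.0882). With H2O2 the KO levels were 2579 RPKM for Ftl1, 752 for Fth1, 317 for Mt2 and 141 for Mt1, while the WT levels were 3751, 1010, 203 and 122.

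The promoters of the metallothionein pair are shown because MTF1 acts on these genes through metal response elements, whose core letters were searched here. Both genes lie on the plus strand of chromosome 8 (mm10), Mt2 at chr8:94172664-94173568 and Mt1 at chr8:94179082-94180327, with 5513 bases between them. The windows are RefSeq's on GRCm38.p6, plus strand, 5′ to 3′, at chr8:94172368-94172617 for Mt2 and chr8:94178839-94179081 for Mt1. Capitals mark the cores TGCACNC or TGCGCNC, on either strand. The printed stretches end before the annotated gene starts and hold 3 cores for Mt2 and 1 for Mt1.
Mt2: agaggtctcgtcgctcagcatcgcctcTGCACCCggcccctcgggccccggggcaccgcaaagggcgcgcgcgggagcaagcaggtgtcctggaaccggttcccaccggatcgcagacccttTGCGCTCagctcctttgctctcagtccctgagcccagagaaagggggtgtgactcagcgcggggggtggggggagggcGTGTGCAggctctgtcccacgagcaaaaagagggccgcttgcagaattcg
Mt1: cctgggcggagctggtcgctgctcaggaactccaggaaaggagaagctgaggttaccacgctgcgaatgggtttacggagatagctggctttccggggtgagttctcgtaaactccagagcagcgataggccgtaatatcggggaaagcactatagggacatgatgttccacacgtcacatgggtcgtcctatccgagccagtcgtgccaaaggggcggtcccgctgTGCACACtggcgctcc
In the full windows of 300 bases, which reach 50 bases past the start site, Mt2 held 4 cores and Mt1 held 3. Slc30a1, the other textbook MTF1 target here, held 2. Tfrc held 2 that overlap each other in 1 of its windows, Aco1 held 1, and Mtf1, Fth1, Ftl1 and Ireb2 held none. No window was matched for Slc11a2. Among 32851 RefSeq promoter windows of the same length, 25.7% held at least 1 core, 7.11% at least 2, 1.97% at least 3 and 0.517% at least 4. The antioxidant response element core TGACNNNGC, on either strand, occurred once in Mt2 and once in Slc30a1, and in 12.4% of all windows. A match is a description of letters and not of binding.

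The iron-responsive elements are shown because they divide the iron genes into those that IRPs block (site in the 5′ UTR) and those that IRPs protect (sites in the 3′ UTR). They were found in GENCODE M21 transcripts (mm10) as a C, 5 bases, the loop CAGTG with 1 further base other than G, and 5 bases that pair with those before the loop, G with T included. Capitals mark the loop. Fth1 has 1 in its 5′ UTR at chr19:9982732-9982761 (plus strand), and Ftl1 has 1 in its 5′ UTR at chr7:45459778-45459807 (minus strand). Tfrc has 4 in its 3′ UTR on the plus strand, at chr16:32631219-32631248, chr16:32631598-32631627, chr16:32631663-32631692 and chr16:32631710-32631739, in the order printed. The iron exporter Slc40a1, which is described with the other iron genes, has 1 in its 5′ UTR at chr1:45925464-45925493 (minus strand).
Fth1: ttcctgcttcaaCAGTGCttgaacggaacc
Ftl1: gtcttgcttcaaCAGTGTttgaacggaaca
Tfrc site a: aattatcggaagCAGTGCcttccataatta
Tfrc site b: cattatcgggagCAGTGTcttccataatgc
Tfrc site c: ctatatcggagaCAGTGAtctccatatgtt
Tfrc site d: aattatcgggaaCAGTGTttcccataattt
Slc40a1: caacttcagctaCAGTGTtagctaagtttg
Such a match was present in 90 of 11591 tested genes with a coding transcript (0.776%). None was matched in Slc11a2, for which a 3′ element is known in some transcripts. That says only that the UTRs of its annotated coding transcripts lack the pattern with all 5 bases paired. An element that departs from the pattern would be missed.

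Without treatment, KO cells had more of both metallothioneins, of the zinc exporter and of both iron importers, and less of both ferritin chains and of Aco1. Of these, Mt2 was 1.83-fold higher, Slc11a2 1.65-fold, Tfrc 1.63-fold, Mt1 1.45-fold and Slc30a1 1.27-fold higher in KO cells, while Ftl1 fell by 29.5%, Aco1 by 18.9% and Fth1 by 17.7%. Mtf1 and Ireb2 did not pass the test. Thus 8 of 10 genes were called at an adjusted p of 0.05, 5 higher and 3 lower, in a comparison where 66.8% of all tested genes were called (33.9% higher, 32.9% lower). In all, 3 of the 10 (Mt2, Tfrc and Slc11a2) were both called and changed at least 1.5-fold, against 24.4% of all tested genes, so neither count stands far from its background. The median log2 fold change of the 10 was 0.19, against 0.00 over all tested genes, and the median size regardless of sign was 0.42 against 0.30. In bulk RNA, fewer cells of a type and less RNA per cell cannot be told apart.

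**Figure D1:**
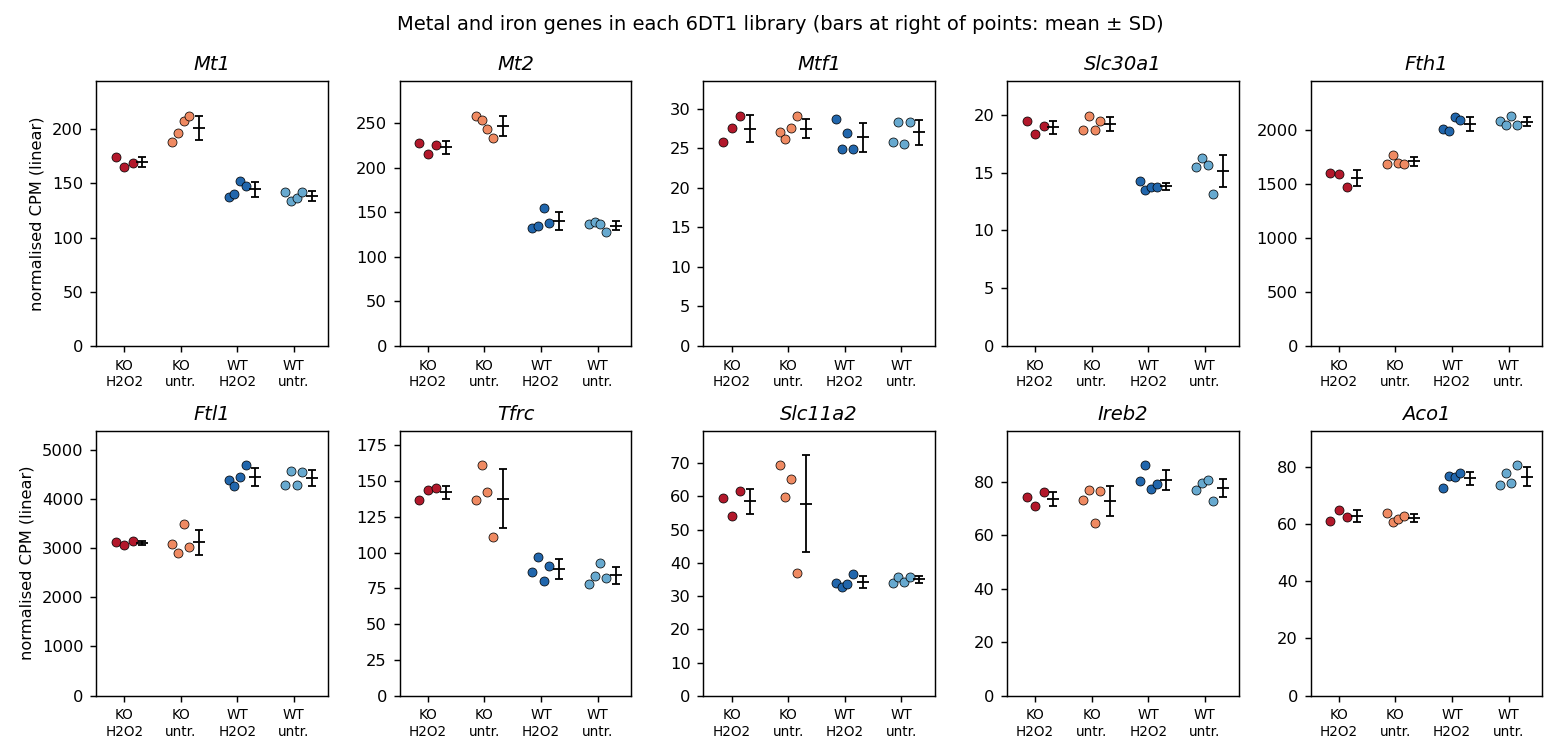
Normalised expression (CPM, linear axes from 0) of the 10 genes in each library, 1 panel per gene, with KO groups left of WT groups and a bar at each group mean. KO libraries lie above WT libraries for Mt1, Mt2, Slc30a1, Tfrc and Slc11a2 and below them for Fth1, Ftl1 and Aco1.

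Of the metallothioneins, Mt2 differed more than Mt1. Mt2 stood at 259, 254, 244 and 233 CPM in untreated KO libraries, against 137, 139, 137 and 128 CPM in untreated WT libraries. Every KO library was well above every WT library. The log2 fold change was 0.87 (SE 0.045, adjusted p 6.1e-16, edgeR's quasi-likelihood test with Benjamini-Hochberg adjustment). Mt1 stood at 188, 196, 208 and 212 CPM in untreated KO libraries, against 142, 134, 136 and 142 CPM in untreated WT libraries. The groups again did not overlap, and the log2 fold change was 0.54 (SE 0.0418, adjusted p 4.8e-12). Together the 2 genes took 0.0442% ± 0.000231 of all counts in untreated KO and 0.0276% ± 0.00048 in untreated WT libraries (SD, n = 4 each).

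The neighbouring genes did not keep a fixed ratio. Mt1 RPKM divided by Mt2 RPKM, in which the scaling of a library cancels, was 0.424, 0.451, 0.496 and 0.531 in untreated KO libraries, against 0.606, 0.558, 0.580 and 0.648 in untreated WT libraries. All KO ratios were below all WT ratios (log2 difference of means −0.33, two-sided exact permutation p = 0.0286, the smallest that 4 against 4 allows). With H2O2 the ratio was 0.446, 0.447 and 0.436 in KO libraries, against 0.605, 0.607, 0.573 and 0.623 in WT libraries (log2 −0.44, exact permutation p = 0.0571, the smallest that 3 against 4 allows). Over the 16 ratio tests run, the adjusted p was 0.183 in both cases, and a design of this size could not go below the threshold after adjustment.

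Slc30a1 (ZNT1, which pumps zinc out of the cell, chr1:191906767-191913247, plus strand) stood at 18.7, 19.9, 18.7 and 19.4 CPM in untreated KO libraries, against 15.5, 16.3, 15.7 and 13.1 CPM in untreated WT libraries. The groups did not overlap, with a log2 fold change of 0.34 (SE 0.0705, adjusted p 0.000103). Mtf1 (chr4:124802104-124849800, plus strand, the chromosome of Clic4) averaged 27.5 ± 1.18 CPM in untreated KO and 27.0 ± 1.55 CPM in untreated WT cells (SD, n = 4 each). Its libraries overlapped, and the log2 fold change was 0.03 (95% interval −0.10 to 0.16, adjusted p 0.727). The mRNA of 3 textbook MTF1 targets was called higher in untreated KO cells, as was that of 33.9% of all tested genes. For Mtf1 mRNA that interval ran from 6.85% downward to 11.4% upward. MTF1 protein and activity were not measured, and the part of MTF1 in these differences was not tested.

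Both chains of ferritin were lower in KO cells. Ftl1 (chr7:45457944-45459884, minus strand) stood at 3079, 2889, 3480 and 3017 CPM in untreated KO libraries, against 4277, 4569, 4279 and 4551 CPM in untreated WT libraries. The highest KO library, replicate 3, was still below the lowest WT library, and the log2 fold change was −0.50 (SE 0.0441, adjusted p 8.61e-11). Fth1 (chr19:9980598-9985098, plus strand), the chain with ferroxidase activity, stood at 1685, 1769, 1696 and 1684 CPM in untreated KO libraries, against 2086, 2043, 2133 and 2047 CPM in untreated WT libraries. Those groups were also apart, at a log2 of −0.28 (SE 0.0351, adjusted p 5.5e-08). The 2 chains took 0.476% ± 0.0237 of all counts in untreated KO and 0.655% ± 0.0127 in untreated WT libraries (SD, n = 4 each). The light chain has a near copy, Ftl1-ps1, with which it can share reads, so its counts are uncertain to that extent. Ftl1-ps1 averaged 22.8 ± 4.09 CPM in untreated KO and 33.3 ± 4.76 CPM in untreated WT cells (log2 −0.54, adjusted p 0.000571), far below Ftl1. Fth1 over Ftl1 by RPKM averaged 0.321 ± 0.0298 in untreated KO and 0.274 ± 0.0153 in untreated WT libraries, which overlapped (log2 0.23, exact permutation p = 0.0857, adjusted p 0.229).

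Iron importers went the other way. Tfrc (chr16:32608920-32632794, plus strand) stood at 137, 161, 142 and 111 CPM in untreated KO libraries, against 78.3, 84.0, 92.6 and 82.5 CPM in untreated WT libraries. All KO libraries were above all WT libraries, with KO replicate 4 the nearest, and the log2 fold change was 0.71 (SE 0.0978, adjusted p 2.9e-05). Slc11a2 (chr15:100387898-100425072, minus strand) stood at 69.4, 59.9, 65.4 and 36.9 CPM in untreated KO libraries, against 34.0, 35.8, 34.4 and 35.8 CPM in untreated WT libraries. KO replicate 4 was barely above WT and the other 3 were well above it, so the log2 fold change of 0.72 had a wide error (SE 0.155, adjusted p 0.00132). Without that replicate it was 0.89 for Slc11a2 (adjusted p 3.04e-14) and 0.80 for Tfrc (adjusted p 2.13e-09).

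The opposite directions of importer and store show in their ratio. Tfrc over Fth1 by RPKM was 0.0474, 0.0533, 0.0490 and 0.0386 in untreated KO libraries, against 0.0219, 0.0240, 0.0254 and 0.0236 in untreated WT libraries. The lowest KO ratio was above the highest WT ratio (log2 difference 0.98, exact permutation p = 0.0286, adjusted p 0.183). With H2O2 the ratio was 0.050, 0.0528 and 0.0579 in KO libraries, against 0.0252, 0.0284, 0.0221 and 0.0253 in WT libraries (log2 1.09, exact permutation p = 0.0571, adjusted p 0.183). With and without H2O2, every KO library had more Tfrc and less Fth1 than any WT library, so this ratio had to separate. Its unadjusted p-values were therefore fixed at the smallest possible and add nothing to the tests of each gene.

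**Figure D2:**
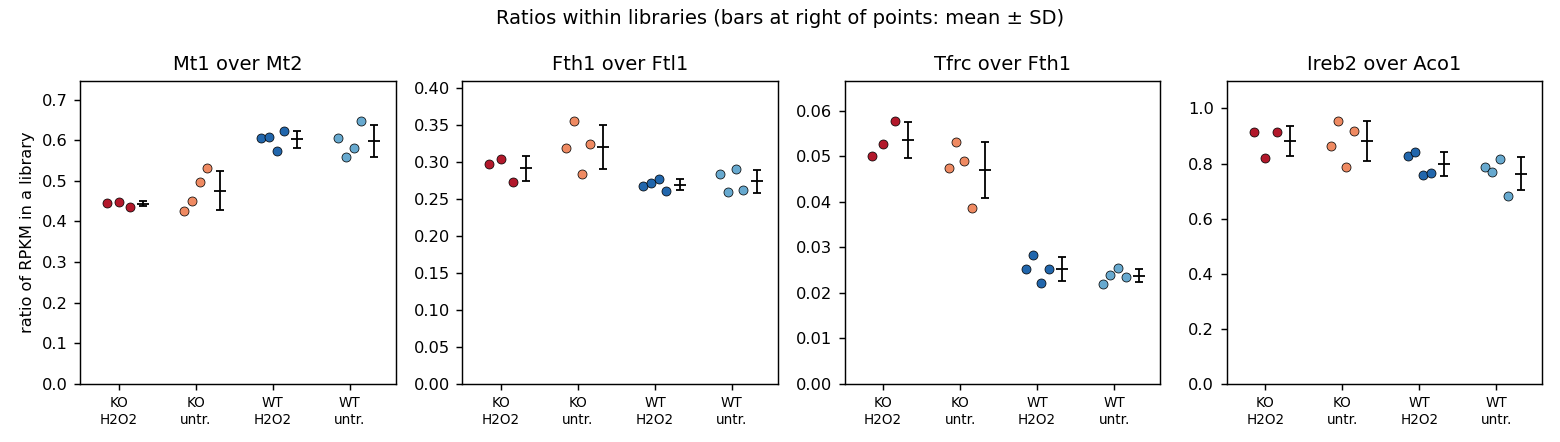
RPKM ratios of 4 gene pairs in each library, KO groups left of WT groups, with a bar at each group mean. Mt1 over Mt2 is lower and Tfrc over Fth1 higher in every KO library than in any WT library of the same treatment, while Fth1 over Ftl1 and Ireb2 over Aco1 overlap.

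Of the iron regulatory proteins, Aco1 was lower in KO cells and Ireb2 did not pass the test. Aco1 (IRP1, chr4:40143081-40198338, plus strand) stood at 63.7, 60.5, 61.6 and 62.6 CPM in untreated KO libraries, against 73.6, 77.9, 74.2 and 80.5 CPM in untreated WT libraries. The groups did not overlap (log2 −0.30, SE 0.0421, adjusted p 3.97e-07). Ireb2 (IRP2, chr9:54863789-54912530, plus strand) stood at 73.2, 77.1, 64.6 and 76.5 CPM in untreated KO libraries, against 77.1, 79.8, 80.8 and 73.0 CPM in untreated WT libraries. These overlapped, with a log2 of −0.09 (95% interval −0.20 to 0.01, adjusted p 0.11). Ireb2 over Aco1 by RPKM averaged 0.881 ± 0.0734 in untreated KO and 0.764 ± 0.0585 in untreated WT libraries (log2 0.21, exact permutation p = 0.0571, adjusted p 0.183). Binding by these proteins depends on iron and on protein levels, which RNA counts do not measure.

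With H2O2 on both genotypes, 9 of the 10 genes were called, 5 higher and 4 lower in KO cells, against 65.4% of all tested genes (33% higher, 32.4% lower). Mt2, Tfrc and Slc11a2 were again the 3 that were called and changed at least 1.5-fold, against 25.4% of all tested genes. These 9 had libraries of the 2 genotypes that did not overlap, as did 66.4% of all tested genes; without treatment 8 of the 10 did, against 58.5%. Mt2 stood at 228, 215 and 226 CPM in treated KO libraries, against 133, 134, 155 and 138 CPM in treated WT libraries (log2 0.67, SE 0.0482, adjusted p 1.06e-12). Mt1 stood at 175, 165 and 169 CPM in treated KO libraries, against 138, 140, 152 and 148 CPM in treated WT libraries. The groups did not overlap, but lay closer together than without treatment, and the log2 fold change was 0.23 (SE 0.0453, adjusted p 6.12e-05).

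The genotype differences of the other genes kept their direction with H2O2. Tfrc stood at 137, 144 and 146 CPM in treated KO libraries, against 86.4, 96.8, 80.4 and 90.8 CPM in treated WT libraries (log2 0.68, SE 0.104, adjusted p 7.8e-05). Slc11a2 stood at 59.7, 54.2 and 61.6 CPM in treated KO libraries, against 34.0, 32.7, 33.8 and 36.8 CPM in treated WT libraries (log2 0.77, SE 0.167, adjusted p 0.00148). Unlike the untreated KO libraries, these 3 were close together for both importers. Slc30a1 averaged 18.9 ± 0.559 CPM in treated KO and 13.8 ± 0.303 CPM in treated WT cells (log2 0.45, adjusted p 8.96e-06). Ftl1 averaged 3107 ± 44.6 CPM in treated KO (n = 3) and 4442 ± 176 CPM in treated WT cells (n = 4; log2 −0.52, adjusted p 3.52e-10), and Fth1 averaged 1556 ± 74.6 and 2054 ± 65.1 CPM in the same order (log2 −0.40, adjusted p 3.9e-10). For Aco1 the log2 fold change was −0.27 (adjusted p 7.92e-06), and for Mtf1 it was 0.06 (adjusted p 0.489).

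Ireb2 was the gene called with H2O2 and not without. It stood at 74.2, 71.0 and 76.2 CPM in treated KO libraries, against 80.2, 86.2, 77.4 and 79.2 CPM in treated WT libraries (log2 −0.13, SE 0.0551, adjusted p 0.0365). The call was lost when KO replicate 5 (adjusted p 0.0663) or 7 (0.158), or WT replicate 13 (0.0505) or 14 (0.136), was left out. The difference between the 2 genotype effects, tested as the interaction, was −0.04 for Ireb2 (adjusted p 0.977).

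**Figure D3:**
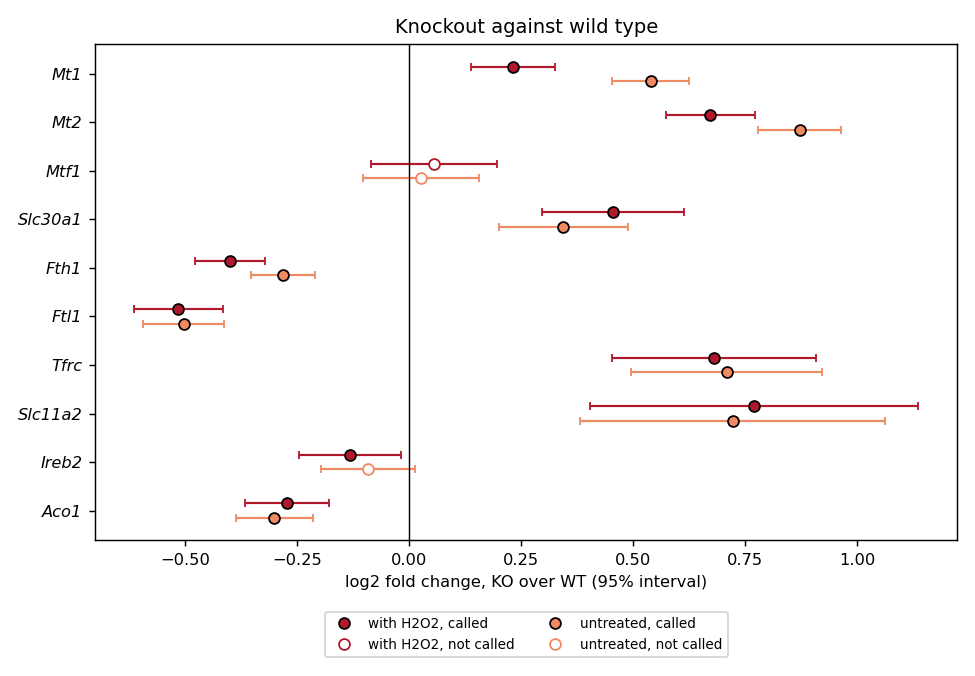
Log2 fold change of KO over WT for each gene without treatment and with H2O2, with 95% intervals from edgeR's fit. Intervals of Mt1, Mt2, Slc30a1, Tfrc and Slc11a2 lie above 0 and those of Fth1, Ftl1 and Aco1 below 0 in both comparisons, and that of Mtf1 spans 0 in both.

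The 1 µM H2O2 treatment itself moved 1 of the 10 genes, Mt1 in KO cells, in a comparison where 0.0535% of tested genes were called (7 genes, all lower). Mt1 fell to 175, 165 and 169 CPM in H2O2-treated KO libraries, against 188, 196, 208 and 212 CPM in untreated KO libraries. Every treated library was below every untreated one, and the decrease was 15.8% (log2 −0.25, SE 0.045, adjusted p 0.0241). That call did not hold without untreated KO replicate 4 (adjusted p 0.0625) or without treated KO replicate 5 (0.0695), 7 (0.141) or 8 (0.189). It was also absent with limma on log2 RPKM (0.114) or with only the KO groups in the fit (0.0652). Mt2 (log2 −0.15, 95% interval −0.25 to −0.05, adjusted p 0.355) and Fth1 (log2 −0.14, 95% interval −0.21 to −0.06, adjusted p 0.273) also had treated KO libraries below all untreated ones, without passing the test. Fth1 stood at 1601, 1596 and 1470 CPM in those treated libraries. That makes 3 of 10 genes with groups that did not overlap, against 7.71% of all tested genes. The 7 other genes had log2 fold changes between −0.02 and 0.05 in KO cells.

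In WT cells H2O2 moved 0 of the 10 genes by edgeR's test, where 0.0153% of tested genes were called (2 genes). DESeq2 and limma called 0 of the 10 as well, and 0 reached an unadjusted p of 0.05, against 6.47% of tested genes. Mt1 stood at 138, 140, 152 and 148 CPM in treated WT libraries, against 142, 134, 136 and 142 CPM in untreated WT libraries. These overlapped, with a log2 of 0.06 (95% interval −0.03 to 0.15, adjusted p 0.874). For Mt2 the log2 was 0.05 (95% interval −0.04 to 0.14), for Fth1 −0.02 (−0.09 to 0.06) and for Slc30a1 −0.13 (−0.28 to 0.02), and none of the 10 genes had groups that did not overlap, against 3.81% of all tested genes.

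Whether H2O2 acted differently in the 2 genotypes was tested as the interaction. By edgeR 0 of the 10 genes and 0% of all tested genes were called, while 3 of the 10 (Mt1, Mt2 and Fth1) and 6.18% of all had an unadjusted p under 0.05. For Mt1 the effect in KO minus that in WT was −0.31 on the log2 scale (SE 0.0618, 95% interval −0.43 to −0.18, adjusted p 0.148). DESeq2 called 15 genes, among them Mt1 (log2 −0.31, adjusted p 0.00613), and edgeR without a filter on low counts called 5, among them Mt1 (adjusted p 0.0121). Limma on log2 RPKM did not call Mt1 (adjusted p 0.305). For Mt2 the interaction was −0.20 (adjusted p 0.67) and for Fth1 −0.12 (adjusted p 0.797). The genotype comparison with H2O2 and the H2O2 comparison in KO cells share the treated KO libraries, so their Mt1 values are not independent.

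**Figure D4:**
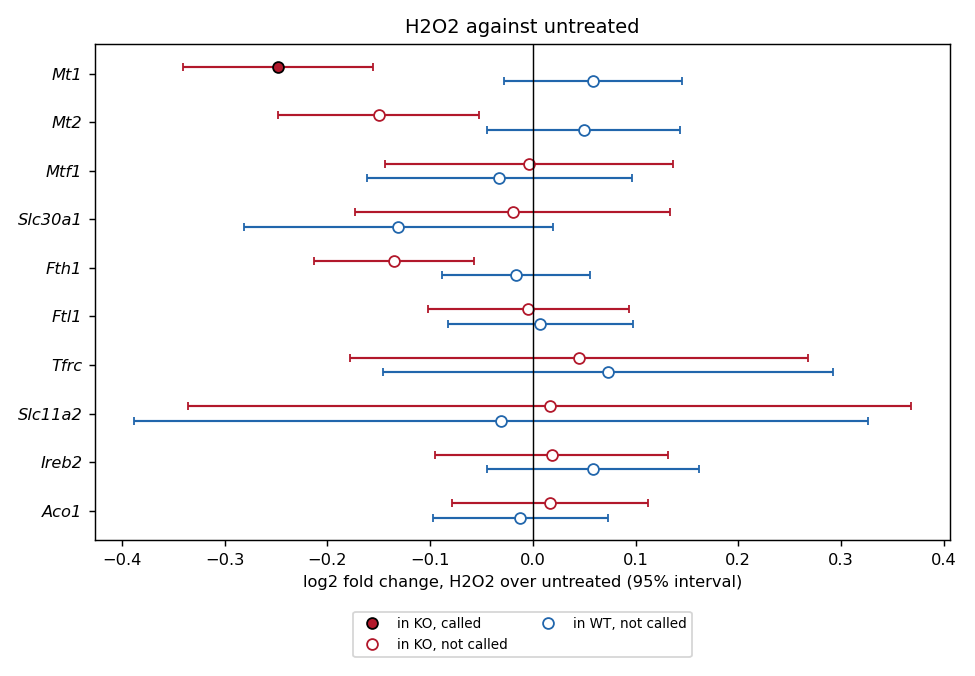
Log2 fold change of H2O2 over untreated for each gene in KO and in WT cells, with 95% intervals from edgeR's fit and called genes as filled points. Mt1 in KO cells is the 1 called point, and intervals for Mt2 and Fth1 in KO cells also lie below 0.

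Other zinc transporters went both ways, with more lower than higher. Of 9 other Slc30 exporters 6 were tested, with 1 higher and 2 lower in untreated KO cells (median log2 −0.03), where 33.9% of all tested genes were higher and 32.9% lower. The higher one, Slc30a2 (ZNT2, which loads zinc into vesicles and is known for supplying zinc to milk), averaged 10.5 ± 1.47 CPM in untreated KO and 0.592 ± 0.151 CPM in untreated WT cells. That is a ratio of 17.62 (95% counting interval 12.53 to 25.53; log2 4.13, adjusted p 3.08e-17). Slc30a9 was at a log2 of −0.19 (adjusted p 2.86e-05) and Slc30a7, which fills the secretory pathway with zinc, at −0.16 (adjusted p 0.00845). Of 14 Slc39 importers 10 were tested, with 1 higher and 6 lower in untreated KO cells (median log2 −0.21), beside the same 33.9% and 32.9%. Slc39a3 averaged 20.1 ± 1.72 CPM in untreated KO and 29.1 ± 1.63 CPM in untreated WT cells (log2 −0.53, adjusted p 3.8e-08), and Slc39a11 43.3 ± 2.17 and 62.4 ± 2.44 CPM in the same order (log2 −0.53, adjusted p 2.13e-10). Slc39a9 (log2 −0.31) and Slc39a6 (log2 −0.28) were lower too. The higher one was Slc39a14, which also carries iron (291 ± 15.8 CPM in untreated KO and 242 ± 13.2 CPM in untreated WT cells, log2 0.27, adjusted p 4.22e-06), which was chosen with its values in view. With H2O2 on both genotypes these counts were 1 higher and 2 lower for Slc30 and 2 higher and 7 lower for Slc39, where 33% of all tested genes were higher and 32.4% lower. Mt3 was at 0 counts and Mt4 at 0 to 4 counts in every library, and neither was tested.

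Other genes of iron uptake, storage, release and export went both ways. Of 27 listed 16 were tested, with 5 higher and 8 lower in untreated KO cells (median log2 −0.10), beside 33.9% higher and 32.9% lower among all tested genes. Scara5, a scavenger receptor known in mouse for taking up ferritin, had 3 counts over the 4 untreated KO libraries and 617 over the 4 untreated WT libraries. The ratio of WT over KO was 203.8 (95% interval 69.41 to 990.9, counting error only). Slc40a1, ferroportin, the exporter of iron whose element is printed above, had 1 count in untreated KO and 97 in untreated WT libraries, a WT over KO ratio of 96.1 (16.9 to 3835; adjusted p 5.88e-11). With H2O2 it had 4 counts in KO and 99 in WT libraries, a WT over KO ratio of 17.2 (6.50 to 64.3; adjusted p 1.01e-08), and it was chosen with its values in view. At 1.65 CPM in untreated WT cells it was expressed at a low level there too.

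Lcn2, lipocalin 2, which binds iron-carrying siderophores, stood at 95.04, 78.0, 86.7 and 27.2 CPM in untreated KO libraries, against 25.5 to 35.9 CPM in untreated WT libraries. KO replicate 4 lay inside the WT range and the other 3 above it (log2 1.28, SE 0.313, adjusted p 0.00321). Flvcr1, a haem and choline transporter, averaged 36.1 ± 2.40 CPM in untreated KO and 62.8 ± 2.76 CPM in untreated WT cells (log2 −0.80, adjusted p 2.98e-13). Steap1, of a family of metalloreductases, was lower without treatment (log2 −0.47, adjusted p 8.05e-05), while with H2O2 its log2 was −0.21 and did not pass the test (adjusted p 0.0635). That difference was not called in the interaction (log2 0.25, adjusted p 0.828).

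Of 5 other mRNAs known to carry an iron-responsive element 4 were tested, with 0 higher and 3 lower in untreated KO cells (median log2 −0.25), where 66.8% of all tested genes were called and 32.9% were lower. Among the lower ones were Slc40a1 and the hypoxia factor Epas1 (log2 −0.28, adjusted p 0.0131). Genes of haem synthesis and breakdown were mostly lower, 10 of 12 tested with 1 higher (median log2 −0.32), against 32.9% lower among all tested genes. Cpox, a late step of haem synthesis, averaged 25.1 ± 1.05 CPM in untreated KO and 44.2 ± 2.48 CPM in untreated WT cells (log2 −0.82, adjusted p 1.3e-11). Hmox1, which breaks haem down and frees its iron, averaged 75.4 ± 8.39 and 122 ± 5.16 CPM in the same order (log2 −0.70, adjusted p 1.47e-10). Ppox (log2 −0.43), the step after Cpox, and Blvrb (log2 −0.37), a biliverdin reductase, were lower as well, and Alad (log2 0.19, adjusted p 0.00899) was the higher one, chosen with its values in view. With H2O2 the haem counts were again 1 higher and 10 lower of 12, where 33% of all tested genes were higher and 32.4% lower.

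**Figure D5:**
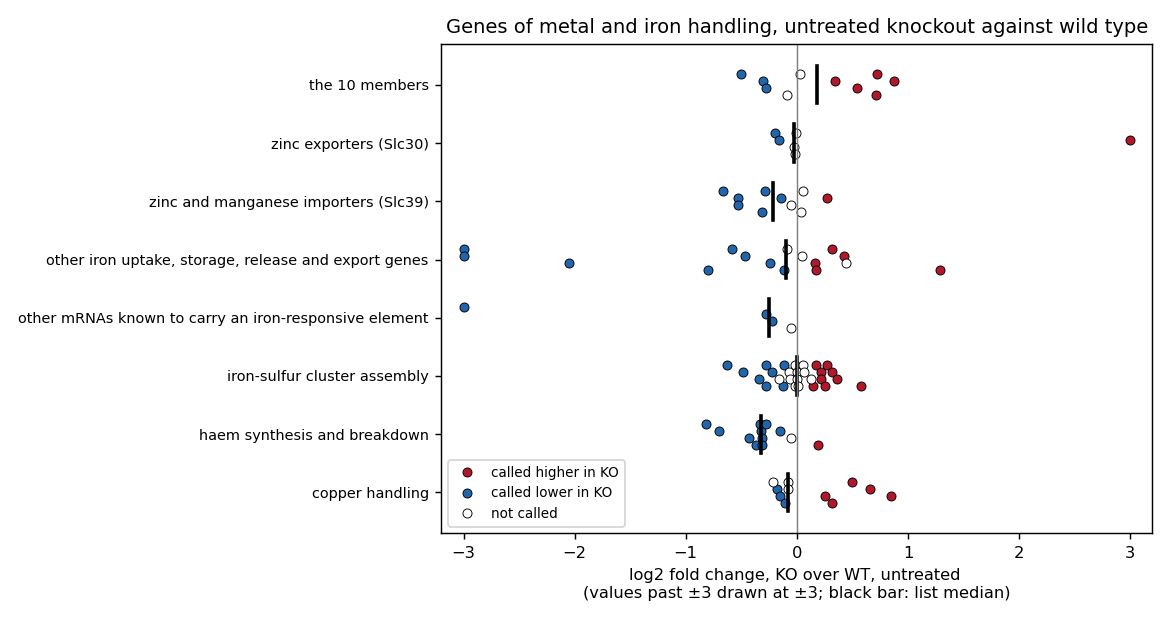
Log2 fold change of KO over WT, untreated, for the 10 genes and for each tested gene of the zinc, iron, haem and copper lists, 1 line per list, red where called higher, blue where called lower, with the list median as a black bar and values past ±3 drawn at ±3. The haem list lies mostly below 0 (median −0.32), and the iron-sulfur list is spread around 0 (median 0.00).

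No gene of these lists was called by edgeR in either H2O2 comparison or in the interaction. Among all tested genes 0.0535% were called in KO cells, 0.0153% in WT cells and 0% in the interaction. With calls this rare, 0 calls do not set the lists apart. Between 0 and 2 genes of each list had an unadjusted p under 0.05 by edgeR in the WT comparison and in the interaction. In WT cells these were 2 of 12 haem genes and 2 of 28 iron-sulfur genes at most. In the interaction they were at most 2, of 11 copper genes. The share of all tested genes was 6.47% in WT cells and 6.18% in the interaction. Whether list genes are among those called by other tools was not looked at.

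Pooled over the groups, deviations of the 2 metallothioneins from their group means had little likeness to each other. Likeness was measured as Pearson's r of log2 CPM deviations from group means over the 15 libraries, which share depth and scaling, for 10195 genes of at least 5 CPM, and is a description only. With Mt1, Mt2 had an r of 0.0314 (rank 4811), which pools groups that differed. In untreated KO replicates 1 to 4, Mt1 deviated by −0.093, −0.033, 0.047 and 0.080, and Mt2 by 0.066, 0.038, −0.018 and −0.085. In treated WT replicates 13 to 16, Mt1 deviated by −0.0685, −0.043, 0.077 and 0.035, and Mt2 by −0.075, −0.056, 0.147 and −0.016. Untreated WT and treated KO libraries held both like and opposite signs. The genes most like Mt1 were Evpl (0.928), Nrde2 (0.901), Piwil4 (0.878), Trim8 (0.873) and Chmp4b (0.847). Fth1 had an r of −0.162 with Ftl1. The genes most like Ftl1 were Ap2a1 (0.945), Iqsec1 (0.915), Sec13 (0.910), Sphk2 (0.900) and Rusc2 (0.899). The genes named for Mt1 and for Ftl1 were picked as the highest of 10195, and whether such values exceed chance was not tested.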

How the data were processed

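Polyadenylated RNA of 15 libraries was sequenced as read pairs from stranded libraries, per the labels' protocols. The authors' tables hold expected counts and RPKM per gene symbol, made with cutadapt, STAR and RSEM on mm10, without versions, per the submitters' processing notes. All deposited expected counts were whole, so none was rounded here. Deposited RPKM values were the same counts rescaled by a factor for each gene and a factor for each library (9805 genes, largest relative deviation 6.2e-15). No column lacked a sample. The annotation used by the authors is not given in the sources used here.

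Counts were tested with edgeR 4.0.16 (R 4.3.3, limma 3.58.1): filterByExpr left 13085 genes with 99.917% of all counts, TMM scaling, 1 robust quasi-likelihood fit to the 4 group means (11 residual degrees of freedom), Benjamini-Hochberg adjustment over all tested genes and a call at 0.05. Every adjusted p of a gene is from this test unless another tool is named; CPM are TMM-scaled. RPKM ratios were compared by two-sided exact permutation tests. Intervals on ratios of summed counts are 95% exact binomial intervals and cover counting error only, as do depths. On simulated counts for the untreated genotype comparison (12850 genes), 80 of 100 genes changed 1.5-fold were recovered. Of 100 changed 2-fold 95 were recovered, with 9 false calls. The run was set to stop if fewer than 80 were recovered at either fold. No other genes were changed in it, whereas 66.8% of tested genes were called in the data. It therefore does not show how scaling and false calls behave where most genes differ.

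Alternatives were DESeq2 1.42.0, limma on log2(RPKM + 0.1), other scalings and filters, fits on the compared groups alone and leaving out each library; leaving out both untreated KO replicate 4 and untreated WT replicate 9 was chosen after seeing the data. The members, lists and tests were chosen with earlier results of these data known. Genes named from a list are the up to 4 with the largest called untreated genotype difference and at least 5 CPM in the higher group; others are said to be chosen with their values in view, and some list genes that meet the rule are not reported here. Positions come from GENCODE M21.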

Additional observations from a re-analysis of the deposited data

Results flagged for a closer look

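Fth1 in untreated KO cells had 1 library apart from the rest: replicate 2 stood at 1769 CPM, against 1684 to 1696 CPM in the other 3. The gap was 0.858 of the group's range, above Dixon's critical value for 4 samples. It was 1 of 30 groups of 4 examined over the 10 genes, and chance marks about 1 group in 20. All 4 libraries remained below the untreated WT libraries. Untreated KO replicate 4, with low Slc11a2, Tfrc and Lcn2, did not pass this limit for any of the 10 genes.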

How the results depend on the processing

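In both genotype comparisons every alternative gave 5 genes higher and 3 to 4 lower of the 10, and all counts of called genes stayed within 1.5 times the reported ones. The H2O2 counts are small and moved. For KO cells (7 genes called, 1 of them among the 10), no filter gave 27 genes, DESeq2 53 and leaving out both doubted libraries (untreated KO replicate 4 and untreated WT replicate 9) 3, while leaving out single libraries gave 0 to 21. Of the 10 genes DESeq2 called 2 (Mt1 and Fth1, the second at adjusted p 0.0155), and limma on RPKM, the KO groups alone and both doubted libraries out (Mt1 adjusted p 0.0671) called 0; single libraries left out gave 0 to 1. For WT cells (2 genes), no filter gave 12, DESeq2 9, and limma, the WT groups alone and both doubted libraries out gave 0; single libraries gave 0 to 13. For the interaction (0 genes), no filter gave 5 and DESeq2 15, each with 1 of the 10, and single libraries left out gave 0 to 3. The cause of these shifts was not tested.

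Signs turned for values that were not called. For Mtf1 the H2O2 effect in KO was 0.0020 with no filter, 8.6e-05 with a CPM filter, 0.0077 with limma and 0.026 without both doubted libraries, and the untreated genotype effect was −0.0046 with limma and −0.026 without both. For Ftl1 the H2O2 effect in KO was 0.0013 with no filter and 0.0088 with limma, and in WT −0.0083 without both doubted libraries. Without both, the H2O2 effect in KO was −0.044 for Tfrc and −0.15 for Slc11a2, and the Slc11a2 interaction was −0.10. Leaving out single libraries also turned signs near 0, 38 times in 18 results. In KO cells the H2O2 effect then ranged from −0.045 to 0.043 for Mtf1, −0.039 to 0.0029 for Slc30a1, −0.039 to 0.055 for Ftl1, −0.046 to 0.13 for Tfrc, −0.15 to 0.11 for Slc11a2, −0.035 to 0.047 for Ireb2 and −0.010 to 0.040 for Aco1. In WT cells it ranged from −0.00098 to 0.071 for Mt2, −0.019 to 0.026 for Ftl1 and −0.031 to 0.0092 for Aco1. The interaction ranged from −0.012 to 0.080 for Mtf1, −0.047 to 0.051 for Ftl1, −0.12 to 0.056 for Tfrc and −0.12 to 0.14 for Slc11a2, and the untreated genotype effect of Mtf1 from −0.0075 to 0.050. Log2 ratio differences with H2O2 ranged from −0.021 to 0.051 for Mt1 over Mt2 and −0.048 to 0.0044 for Fth1 over Ftl1 in WT cells, and −0.047 to 0.058 for Ireb2 over Aco1 in KO cells. No paired analysis was possible because the libraries are numbered 1 to 16 with no number shared between groups. Ireb2 was called without treatment (−0.13, adjusted p 0.0351) when WT replicate 12 was left out. Depth limits Slc40a1 and Scara5, at 1 to 4 counts in KO cells.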

Other observations

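Copper and iron-sulfur genes did not move in 1 direction. Of 12 copper genes 11 were tested, with 5 higher and 3 lower in untreated KO cells (median log2 −0.08), where 66.8% of all tested genes were called, 33.9% higher and 32.9% lower. Slc31a2, a copper transporter of endosomes, averaged 41.8 ± 3.98 CPM in untreated KO and 23.3 ± 0.983 CPM in untreated WT cells (log2 0.84, adjusted p 1.16e-11). Slc31a1, the copper importer of the cell surface, averaged 66.0 ± 2.44 and 53.0 ± 1.60 CPM in the same order (log2 0.32, adjusted p 1.64e-06). Cox19 (log2 0.66) and Sco2 (log2 0.50, adjusted p 0.00185), which serve copper delivery to cytochrome oxidase, were also higher. With H2O2 Sco2 averaged 4.87 ± 1.01 CPM in KO and 5.00 ± 0.0897 CPM in WT cells, with a log2 of −0.04 (adjusted p 0.848), and its interaction was not called (log2 −0.53, adjusted p 0.785). Of 28 genes of iron-sulfur cluster assembly, all tested, 9 were higher and 8 lower in untreated KO cells, beside the same shares of all tested genes. Hscb, a co-chaperone of cluster transfer, averaged 9.09 ± 1.07 CPM in untreated KO and 14.1 ± 0.614 CPM in untreated WT cells (log2 −0.63, adjusted p 2.92e-07). Nubpl, which serves complex I, was lower (log2 −0.49), while Cisd3 (log2 0.57) was higher.

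Summed fibroblast markers (8 genes, mostly Pdgfra) lay at 11.6 to 12.4 CPM in H2O2-treated KO, 11.3 to 14 in untreated KO, 16.9 to 22 in H2O2-treated WT and 19.8 to 22.5 CPM in untreated WT cells. Summed endothelial markers (7 genes) lay at 5.35 to 5.73, 4.98 to 5.48, 23.2 to 25.9 and 23.1 to 25 CPM in the same groups, with Emcn at 0 in all. Vwf averaged 1.83 ± 0.309 CPM in untreated KO and 22.2 ± 1.65 CPM in untreated WT cells (log2 −3.58) and made up most of the WT sums. Cdh5 went the other way (1.66 ± 0.431 CPM in untreated KO and 0.71 ± 0.0565 CPM in untreated WT cells, log2 1.21), as did Tie1, at 1.44 ± 0.152 CPM in untreated KO libraries and 0 counts in untreated WT libraries. Untreated WT replicate 9 carried Ptprc (4.52 CPM), Laptm5 (8.64 CPM) and Coro1a (8.37 CPM), genes of blood cells, against 0, 0.139 to 0.212 and 0.191 to 0.417 CPM in the other 3 untreated WT libraries. It also carried the endothelial marker Pecam1 (2.36 CPM, against 0 to 0.255) and the fibroblast marker Pdgfrb (2.90 CPM, against 0 to 0.0709).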
